A study of Saccharomyces cerevisiae with 42 samples.

Results

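The 9 genes described here make, desaturate, lengthen and activate fatty acids in the budding yeast Saccharomyces cerevisiae: ACC1, FAS1, FAS2, OLE1, ELO1, FAA1, FAA3, FAA4 and ACB1. They were chosen by what their enzymes do, from the gene symbols of the array platform, and are 9 of the 5656 genes measured. Each gene was read from its brightest probe set, by the mean of the 42 arrays. FAS1 and FAS2 have 8 probe sets each, and the other 7 genes have 1 each.

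Fatty acid synthesis starts when acetyl-CoA carboxylase (Acc1) turns acetyl-CoA into malonyl-CoA. Fatty acid synthase, a complex of the beta subunit Fas1 and the alpha subunit Fas2, builds saturated acyl chains from it, and the desaturase Ole1 places the double bond that yeast membranes need to stay fluid. Free fatty acids re-enter the pathway through acyl-CoA synthetases (Faa1, Faa3 and Faa4), and the binding protein Acb1 carries the acyl-CoA esters to enzymes such as serine palmitoyltransferase, which makes the sphingoid base backbone of sphingolipids.

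The arrays compare a parental strain, JK939a, with strains dpl1D and lcb4D/lcb5D, sampled before heat and 5, 10, 15, 20, 25 and 30 min after heat stress (39 C). Each of these 21 groups of strain and time has 2 arrays. All 3 strains are MAT α, need added nutrients through his4, trp1, ura3-52 and leu2-3 112, and carry rme1 and HMLa. They were grown in the rich medium YPD to log phase. The first deletion strain also carries dpl1:KanMX, which removes the lyase that breaks phosphorylated sphingoid bases into a fatty aldehyde and ethanolamine phosphate. The other carries lcb4::KanMX and lcb5::KanMX, which remove the kinases that phosphorylate those bases, and is called the double deletion below. The labels do not say how many clones or cultures the arrays of a strain came from, so the p-values speak only of the spread among these arrays, which may be technical.

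The deleted genes followed the strain labels: over the 7 times DPL1 differed by -6.14 ± 0.12 (log2, SE) between dpl1D and the parental strain. In the double deletion the difference was -1.85 ± 0.10 for LCB4 and -3.99 ± 0.12 for LCB5. In the parental strain the mating type followed the labels too. Before heat its arrays gave 7.75 and 9.09 for STE3, the receptor that MAT alpha cells carry. They gave 2.72 and 2.73 for STE2, the receptor of MATa cells, with 1.36 the lowest value in the data. Levels in the deletion strains, and of other mating type genes, are not given here. Across genes, the r of the paired arrays of a group lay between 0.942 and 0.980. The arrays numbered 1 and 2 differed as sets: the 18S ribosomal RNA control averaged 13.1 on the 21 arrays numbered 1 and 7.05 on the 21 numbered 2 (from 4.57 to 12.4), and the 3′ minus 5′ difference of the SRB4 control probe sets averaged 0.52 and 1.97. Results of the 9 genes are therefore also given, where they change, from a fit with the replicate number as a block, strain by strain. Comparisons of single heat times with the time before heat, and values of genes other than the 9, are from the fit without it.

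All values are log2 signals after robust multi-array averaging (RMA), which gives each array nearly the same distribution, so changes are relative to the rest of the transcriptome. Signals of different genes are not set against each other. The mean heat response is the mean of the 6 heat times minus the time before heat, from limma fitted to all genes and all 42 arrays, and a gene is called where its p, adjusted by Benjamini-Hochberg over all 5656 genes, is under 0.05. Comparisons within a strain share its 2 arrays before heat, and both comparisons with the parental strain share the parental arrays.

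After heat most of the 9 genes were lower and 1 was higher. In the parental strain 5 of the 9 fell in the mean heat response (FAS1, FAS2, OLE1, FAA3 and FAA4), where 24.5% of all genes were called lower, and FAA1 rose, where 21.8% were called higher. In dpl1D ACC1 also passed, making 6 lower against 26.6% of all genes, with FAA1 again the 1 called higher against 20.6%. In the double deletion the same 5 genes as in the parental strain fell against 25.2%, and FAA1 rose against 19.1%. The median change of the 9 genes was -0.75 in the parental strain, -0.92 in dpl1D and -0.86 in the double deletion, and the median over all genes was -0.02, -0.05 and -0.02. Centring the arrays on hybridisation controls in place of the RMA scale left 1, 1 and 2 of the 9 called lower in the 3 strains, and ended the FAA1 call in the double deletion (1.56, adjusted p = 0.0515). The values themselves moved less, to -1.46 for OLE1, -0.96 for FAS1 and -0.89 for FAA3 in the parental strain. These are bulk RNA measurements, in which fewer cells with a transcript and less transcript per cell cannot be told apart.

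**Figure D1:**
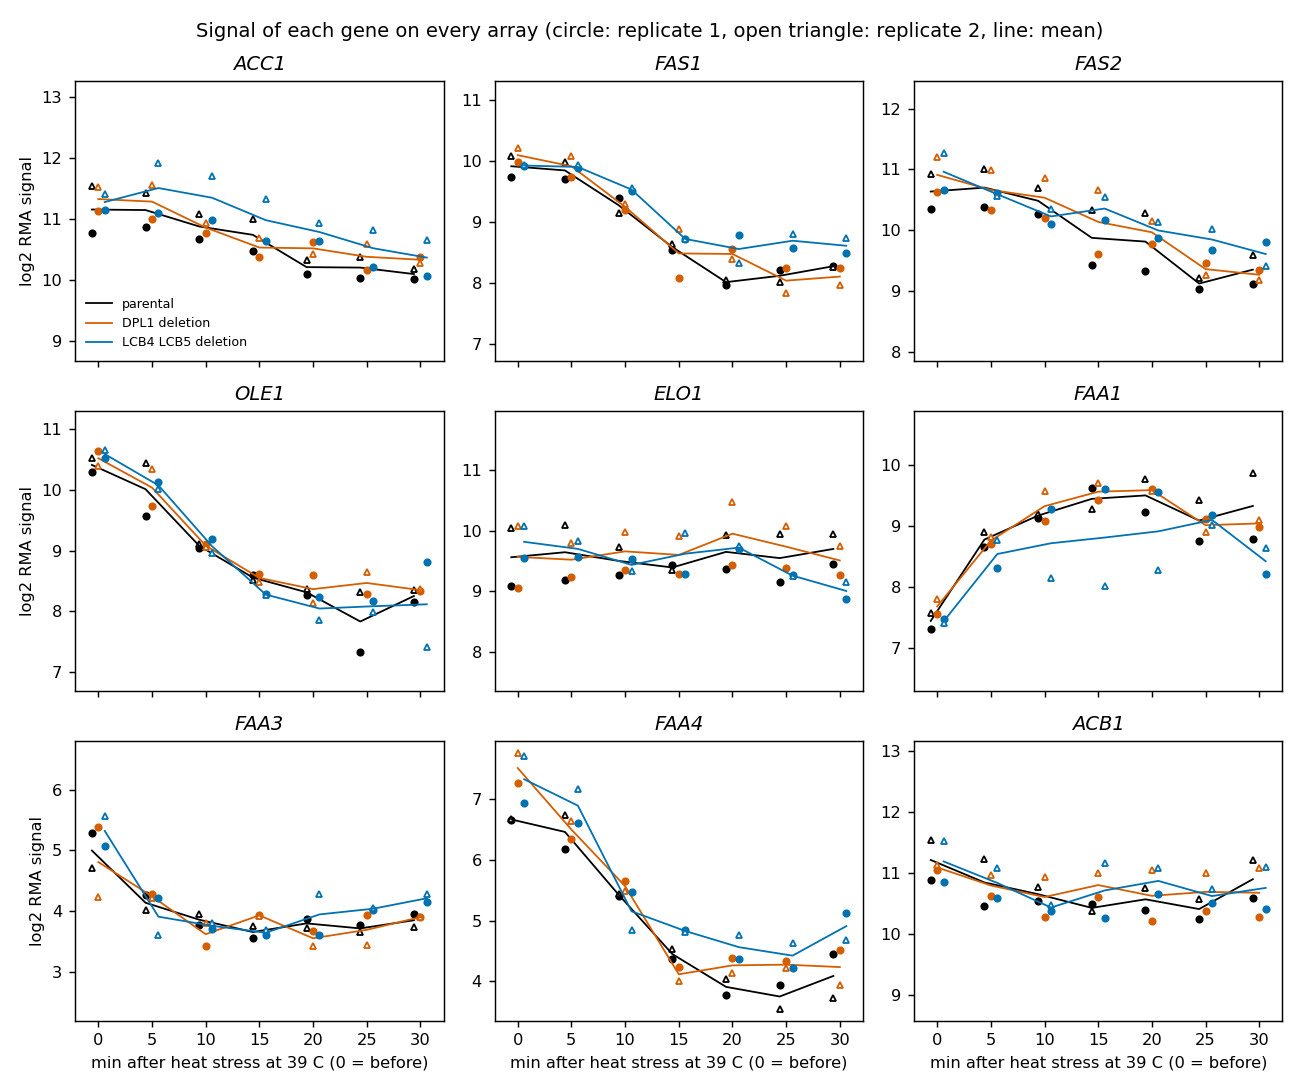
Log2 RMA signal of each of the 9 genes (vertical axis) against min after heat stress at 39 C (horizontal axis) in the 3 strains, with both arrays of each group as points and their mean as a line. All panels span the same number of log2 units, but heights of different genes cannot be compared, and FAA3 and FAA4 end at low signal. OLE1 and FAA4 run down in every strain, FAA1 runs up, and ELO1 shows no called change.

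**Figure D2:**
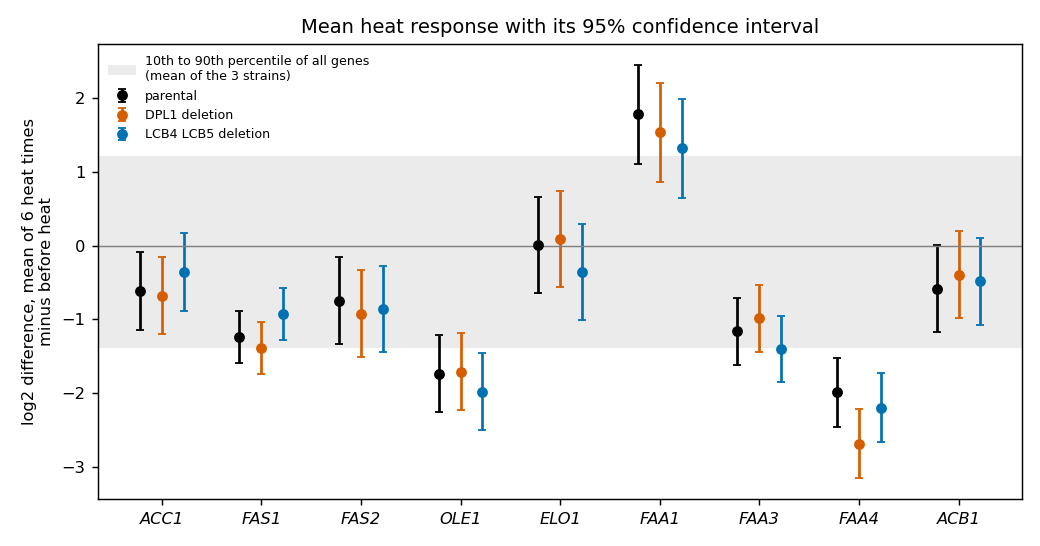
Mean heat response (log2 difference, vertical axis) of each gene in the 3 strains, with its 95% confidence interval; the grey band runs from the 10th to the 90th percentile of all genes, averaged over strains. FAA1 is the 1 gene above 0 in all 3 strains with intervals clear of 0, and OLE1 and FAA4 lie lowest.

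ACC1, the first committed step, was called in dpl1D without the replicate block and in all 3 strains with it. It gave 10.77 and 11.54 on the 2 parental arrays before heat, then 10.87 and 11.43 at 5 min, 10.68 and 11.08 at 10 min, 10.48 and 11.00 at 15 min, 10.10 and 10.32 at 20 min, 10.02 and 10.38 at 25 min, and 10.02 and 10.17 at 30 min. In all, 8 of the 12 heated arrays lay below both arrays before heat, including every array from 20 min on, and those of 5 min lay between them. Its mean heat response was -0.61 ± 0.26 (SE, adjusted p = 0.052) in the parental strain, -0.68 ± 0.26 (adjusted p = 0.031) in dpl1D and -0.36 ± 0.26 (adjusted p = 0.27) in the double deletion, by limma. With the replicate block ACC1 passed in all 3 strains, with adjusted p = 0.000855 in the parental strain, 0.00029 in dpl1D and 0.038 in the double deletion. With a block across all strains instead, ACC1 was not called in the double deletion. Without the block the values rested on single arrays before heat. Leaving out the first or the second gave -0.997 (adjusted p = 0.0219) or -0.22 (adjusted p = 0.661) in the parental strain, and -0.87 (adjusted p = 0.0544) or -0.49 (adjusted p = 0.309) in dpl1D.

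Both subunits of fatty acid synthase fell at the probe sets used, FAS2 less firmly than FAS1. FAS1 gave 9.75 and 10.09 before heat in the parental strain, 9.71 and 9.98 at 5 min, 9.40 and 9.15 at 10 min, 8.54 and 8.63 at 15 min, 7.97 and 8.05 at 20 min, 8.21 and 8.01 at 25 min, and 8.28 and 8.26 at 30 min. In each strain 11 of the 12 heated arrays lay below both arrays before heat. The mean heat response of FAS1 was -1.23 ± 0.17 (adjusted p = 1.59e-06, a 2.35-fold fall) in the parental strain, -1.39 ± 0.17 in dpl1D and -0.93 ± 0.17 in the double deletion. FAS2 moved less: the parental arrays gave 10.35 and 10.93 before heat, 10.27 and 10.70 at 10 min, and 9.11 and 9.59 at 30 min. Its mean heat response was -0.74 ± 0.29 (adjusted p = 0.034) in the parental strain, -0.92 ± 0.29 (adjusted p = 0.0093) in dpl1D and -0.86 ± 0.29 (adjusted p = 0.016) in the double deletion. The call for FAS2 rested on the second array before heat, without which the value was -0.45 (adjusted p = 0.405) in the parental strain, -0.63 (adjusted p = 0.222) in dpl1D and -0.55 (adjusted p = 0.309) in the double deletion. In the parental strain it was also lost without the array numbered 1 of 5 min (adjusted p = 0.0512), 15 min (0.0505) or 20 min (0.0504), and with array weights (0.0561).

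The other probe sets of the subunits gave the same direction for FAS1 and, with 1 exception, for FAS2. All 7 further FAS1 probe sets had a negative mean heat response in each strain, from -1.36 to -1.03 in the parental strain, from -1.44 to -0.77 in dpl1D and from -1.12 to -0.55 in the double deletion. With p adjusted over all 9275 probe sets, 2 of these 7 were called in each strain, and with the replicate block 7 in the parental strain, 7 in dpl1D and 6 in the double deletion. For FAS2, 6 of the 7 were negative in each strain, none was called by limma without the block, and 4, 2 and 5 were called with it. The exception, 2601_at, gave 0.057, 0.30 and 0.45 in the 3 strains and was called in no strain, with or without the block. These probe sets differed widely between arrays numbered 1 and 2: FAS1 probe set 2964_at was lower on the array numbered 2 in 21 of 21 groups, with a mean difference of -2.07 ± 0.76 (SD), and FAS2 probe set 2607_s_at was higher there by 0.79 ± 0.45 (SD). The sets used for the 2 genes, 10781_at and 7973_at, differed by 0.05 ± 0.29 (SD) and 0.41 ± 0.38 (SD). Averaging all probe sets of a gene ended the FAS2 call in every strain, with -0.65 (adjusted p = 0.09) in the parental strain, -0.51 (adjusted p = 0.184) in dpl1D and -0.67 (adjusted p = 0.0829) in the double deletion, and the FAS1 call in the double deletion (-0.89, adjusted p = 0.11). Where in the transcript each set lies was not analysed here.

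**Figure D3:**
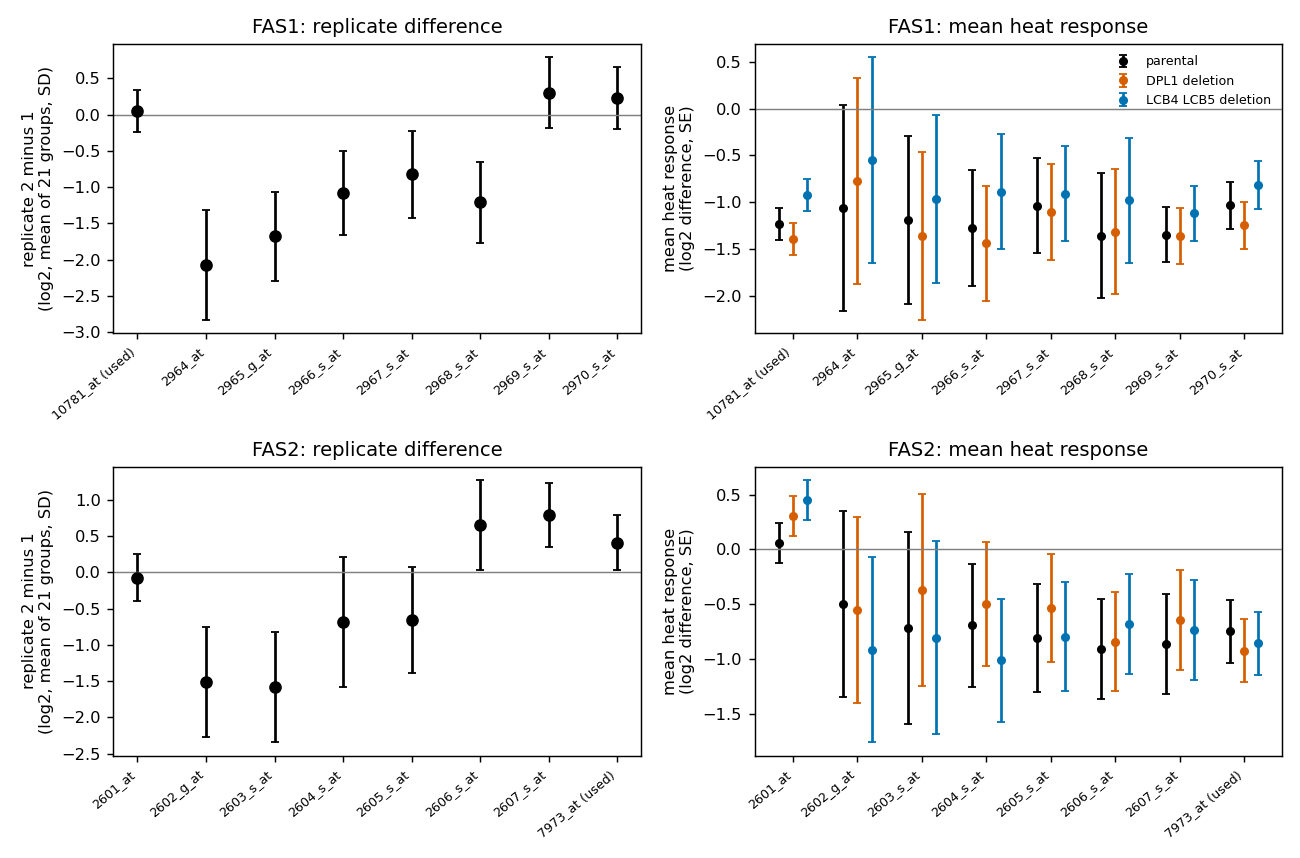
Every probe set of FAS1 (top) and FAS2 (bottom). The left panels give the array numbered 2 minus the array numbered 1 (log2, mean and SD over 21 groups), and the right panels the mean heat response in the 3 strains (log2, SE from the fit without the replicate block). Sets with a large replicate difference on the left carry the wide errors on the right, and 2601_at is the set above 0.

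OLE1 fell in every strain. In the parental strain it gave 10.30 and 10.52 before heat, 9.58 and 10.44 at 5 min, 9.05 and 9.11 at 10 min, 8.60 and 8.51 at 15 min, 8.27 and 8.37 at 20 min, 7.34 and 8.33 at 25 min, and 8.16 and 8.35 at 30 min. In dpl1D the 2 arrays before heat gave 10.64 and 10.40 and the 12 heated arrays ran from 8.13 through a median of 8.61 to 10.34, and in the double deletion 10.53 and 10.65 gave way to 7.42 through 8.28 to 10.14. From 10 min on every array of every strain lay below both arrays before heat. The mean heat response was -1.74 ± 0.25 (adjusted p = 3.32e-06, 3.33-fold) in the parental strain, -1.71 ± 0.25 (3.27-fold) in dpl1D and -1.98 ± 0.25 (3.93-fold) in the double deletion. These values stood at percentiles 6.67, 7.18 and 4.19 of all genes in the parental strain, dpl1D and the double deletion.

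ELO1, which lengthens medium-chain fatty acids, was not called in any strain. The 2 parental arrays before heat gave 9.08 and 10.04 and the 12 heated arrays ran from 9.15 through a median of 9.45 to 10.10, so 11 of the 12 lay between the unheated ones. Its mean heat response was 0.01 (95% interval -0.64 to 0.66) in the parental strain, 0.10 (-0.56 to 0.75) in dpl1D and -0.36 (-1.01 to 0.29) in the double deletion. ELO1 was higher on the array numbered 2 in 18 of 21 groups, by 0.51 ± 0.36 (SD), which widens these intervals. With the replicate block its SE was 0.17 and its lowest adjusted p was 0.0753, in the double deletion.

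The acyl-CoA synthetases went opposite ways. FAA1, the main activator of imported fatty acids, gave 7.31 and 7.57 before heat in the parental strain, 8.65 and 8.91 at 5 min, 9.14 and 9.20 at 10 min, 9.62 and 9.27 at 15 min, 9.24 and 9.77 at 20 min, 8.75 and 9.42 at 25 min, and 8.79 and 9.87 at 30 min. All 12 heated arrays lay above both arrays before heat in each of the 3 strains. The rise was 1.78 ± 0.33 (adjusted p = 6.42e-05, 3.43-fold) in the parental strain, 1.54 ± 0.33 (2.90-fold) in dpl1D and 1.32 ± 0.33 (adjusted p = 0.0017, 2.49-fold) in the double deletion. In the double deletion the arrays numbered 1 and 2 disagreed at 3 times, with 9.28 and 8.15 at 10 min, 9.60 and 8.02 at 15 min, and 9.55 and 8.27 at 20 min. The 10 min array numbered 2 of that strain also had the largest SRB4 3′ minus 5′ difference of all arrays, 3.73, and its part in the FAA1 values was not tested.

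FAA4, the other synthetase that serves imported fatty acids, had the largest fall of the 9 in each strain on all arrays. In the double deletion this order rested on the second array before heat, without which FAA4 gave -1.81 and OLE1 -1.91. The parental arrays gave 6.65 and 6.68 before heat, 6.19 and 6.73 at 5 min, 5.41 and 5.44 at 10 min, 4.36 and 4.54 at 15 min, 3.78 and 4.04 at 20 min, 3.95 and 3.55 at 25 min, and 4.46 and 3.72 at 30 min. In dpl1D the signal went from 7.27 and 7.75 to a heated median of 4.36, and in the double deletion from 6.94 and 7.71 to 4.83. The mean heat response was -1.98 ± 0.23 (3.95-fold), -2.68 ± 0.23 (6.42-fold) and -2.20 ± 0.23 (4.58-fold) in the parental strain, dpl1D and the double deletion, with adjusted p = 9.99e-08, 4.12e-10 and 2.2e-08. The mean signal of FAA4 over all arrays stood at percentile 25.3 of genes.

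FAA3, a synthetase of long-chain fatty acids, was dimmer still, at percentile 10.6. It gave 5.29 and 4.70 before heat in the parental strain and 4.26 and 4.02 already at 5 min, with 3.96 and 3.74 at 30 min. All 12 heated arrays lay below both unheated ones in the parental strain and the double deletion, and 11 of 12 did in dpl1D. The mean heat response was -1.16 ± 0.22 (adjusted p = 9.58e-05) in the parental strain, -0.98 ± 0.22 (adjusted p = 0.000564) in dpl1D and -1.40 ± 0.22 in the double deletion. The dpl1D arrays before heat gave 5.38 and 4.24, and without the first of them the value there was -0.42 (adjusted p = 0.211). The heated arrays of the 3 strains gave values between 3.43 and 4.29.

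ACB1 was called in no strain by limma without the block and in all 3 with it. The 2 parental arrays before heat gave 10.89 and 11.54 and the heated ones ran from 10.24 through 10.56 to 11.23, with 10 of 12 below both unheated ones. The values were -0.58 ± 0.29 (adjusted p = 0.099), -0.39 ± 0.29 (adjusted p = 0.27) and -0.49 ± 0.29 (adjusted p = 0.18) in the parental strain, dpl1D and the double deletion, with adjusted p = 0.00369, 0.0409 and 0.014 with the replicate block. Leaving out the first or the second array before heat moved ACB1 to -0.90 or -0.26 in the parental strain and to -0.82 or -0.15 in the double deletion. ACB1, ELO1, ACC1 and FAS2 are the 4 members that were higher on the arrays numbered 2, by means between 0.41 and 0.51, and the mean difference of the other 5 lay between -0.08 and 0.05. With the block 7 of the 9 were called lower in each strain, against 29.6%, 31.7% and 30.1% of all genes in the parental strain, dpl1D and the double deletion. In the double deletion ACC1 was not among those called with a block across all strains.

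FAA1, FAA3 and FAA4 passed the test in the first 5 min, as OLE1 and ACB1 did with the replicate block. FAS1 passed between 5 and 10 min and between 10 and 15 min. To gain precision, each time was compared with the time before it, averaged over the 3 strains (6 arrays against 6), a comparison added after seeing the data. Between 0 and 5 min FAA1 rose by 1.18 ± 0.25, FAA3 fell by 0.94 ± 0.17 and FAA4 fell by 0.55 ± 0.17, and these were the 3 members called, against 34.4% of all genes. The same step gave 0.06 ± 0.19 for ACC1, -0.09 ± 0.13 for FAS1 and -0.18 ± 0.22 for FAS2. Between 5 and 10 min FAS1 fell by 0.54 ± 0.13, OLE1 fell by 0.96 ± 0.19 and FAA4 fell by 1.23 ± 0.17, against 24.1% of all genes. Between 10 and 15 min FAS1 fell by 0.76 ± 0.13 and FAA4 fell by 0.92 ± 0.17, against 2.67%. No member was called by limma in the 3 later steps (0, 1 and 0 at an unadjusted p under 0.05), and 0% of all genes were called in any of the 3. The replicate block gave 5 members in the first step, against 44.2% of all genes, with OLE1 (-0.47 ± 0.17, adjusted p = 0.0269) and ACB1 (-0.34 ± 0.12, adjusted p = 0.0267) added. In the second step 4 did, against 36.2%, with ACC1 added (-0.29 ± 0.11, adjusted p = 0.0432), and in the next 3, against 5.85%, with OLE1 added (-0.62 ± 0.17, adjusted p = 0.0275). In the first 2 steps these shares of members are near those of all genes. FAS2 passed in no step with or without the block, and the fitted changes were between -0.10 and -0.29 for each step of ACC1 after 5 min, and lowest for FAS2 from 20 to 25 min, at -0.48 ± 0.22.

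**Figure D4:**
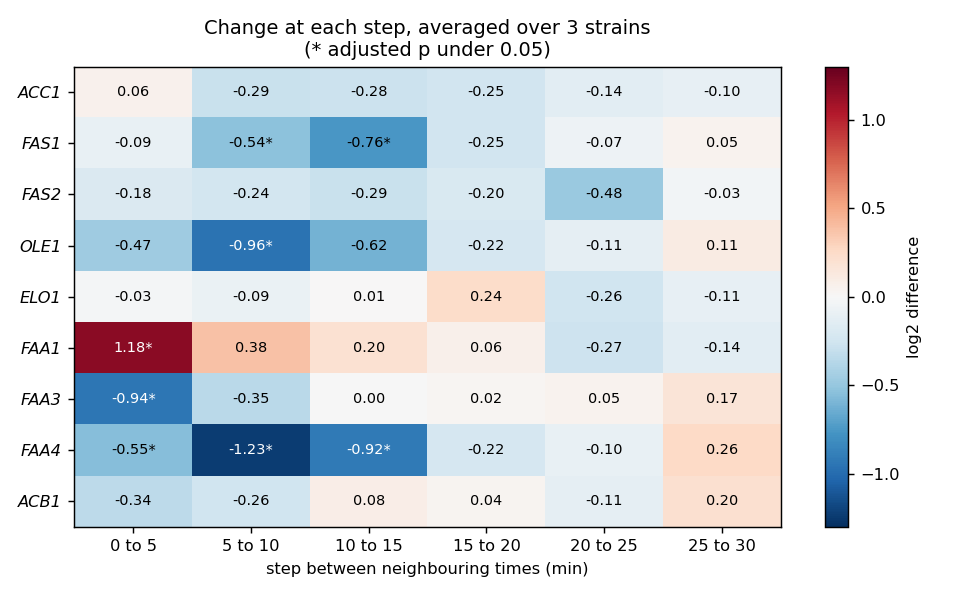
Change of each gene (rows) between neighbouring times (columns), averaged over the 3 strains, as a log2 difference printed in each cell and shown by colour; a star marks an adjusted p under 0.05 in the fit without the replicate block. FAA1 and FAA3 move in the first step, FAS1, OLE1 and FAA4 mainly between 5 and 15 min, and the last 3 columns hold no star.

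Within single strains the times of the first calls differed in the fit without the replicate block. Calls at single times with the block are not given here. In the parental strain FAA1 (1.34 ± 0.43) and FAA3 (-0.86 ± 0.29) were the 2 called at 5 min against the time before heat, where 14.2% of all genes were. FAS1, OLE1 and FAA4 joined them at 10 min, making 5 at 10 and at 15 min against 33.5% and 42.5%. ACC1 joined at 20 min (6 against 42.9%), and FAS2 at 25 min, giving 7 at 25 and 30 min against 39% and 36.3%. In dpl1D 1 member was called at 5 min (FAA4, 14.8% of all genes), 5 at 10 and 15 min (35.3% and 40.5%), 6 at 20 min (44.4%), with FAS2 added, and 7 at 25 and 30 min (42% and 37.8%), with ACC1 added. In the double deletion the counts were 1 at 5 min (FAA3, 16.2%), 4 at 10 min (38.7%), 5 at 15 min (39.7%) and 6 at 20, 25 and 30 min (39.7%, 35.3% and 26.1%), with FAS2 added at 20 min and ACC1 at 30 min, when FAA1 was no longer called (0.99 ± 0.43, adjusted p = 0.0905). FAA1 was thus called from 5 min in the parental strain and from 10 min in both deletion strains. A joint F test of the 6 heat times gave no call for FAA1 in either deletion strain against the parental strain. Its unadjusted p was 0.983 in dpl1D and 0.694 in the double deletion. The time of the first call itself was not compared between strains. At 5 min the counts of members were near what the share of all genes would give.

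The mean of 25 and 30 min was compared with the mean of 10 and 15 min in each strain, a contrast that includes the changes between 10 and 15 min. At the probe set used, FAS1 was lower at the later times in all 3 strains. Averaging all its probe sets ended this limma call in every strain. The averages gave -0.76 (adjusted p = 0.303) in the parental strain, -0.33 (adjusted p = 0.728) in dpl1D and -0.17 (adjusted p = 0.871) in the double deletion. In the parental strain FAS1 (-0.74 ± 0.16), FAS2 (-0.94 ± 0.26), OLE1 (-0.77 ± 0.23) and FAA4 (-1.02 ± 0.21) were lower at the later times, 4 of 9 against 8.38% of all genes. In dpl1D FAS1 (-0.80 ± 0.16) and FAS2 (-1.02 ± 0.26) did, against 7.25%. ACC1 (-0.72 ± 0.24) and FAS1 (-0.48 ± 0.16) passed narrowly in the double deletion, against 12%, and leaving out single arrays left 0 to 2 calls. Of the 42 fits without 1 array, 29 kept the ACC1 call there and 9 kept the FAS1 call. In the parental strain OLE1 lost its call without any of 7 single arrays (up to adjusted p = 0.227, without the first of 25 min) and FAS2 without any of 4 (up to 0.178). In dpl1D FAS2 lost it without any of 4 (up to 0.199) and FAS1 without 1 (0.0504), and centring on hybridisation controls left 0 calls in every strain. With the replicate block the counts were 5, 2 and 4, against 18%, 16.7% and 21.9% of all genes, and FAS1 and FAS2 were among them in each strain. FAA1 and FAA3 were not called in any strain in this comparison, with differences between -0.42 and 0.42.

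No difference between dpl1D and the parental strain was called for any of the 9 genes. Averaged over the 7 times, none passed by limma (1 at an unadjusted p under 0.05), against 0.0177% of all genes. The largest of these differences was that of FAA4, at 0.25 ± 0.11 with a 95% interval of 0.01 to 0.48, and the intervals of the other 8 lay between -0.30 and 0.41. Before heat FAA4 gave 6.65 and 6.68 in the parental strain and 7.27 and 7.75 in dpl1D, a difference of 0.85 ± 0.30 that did not pass (unadjusted p = 0.00867, adjusted p = 1), and 0 members passed against 0.0177% of all genes. The mean heat response of FAA4 differed by -0.70 ± 0.32 (dpl1D minus parental), which did not pass either (unadjusted p = 0.0386). No member was called for a difference in mean heat response (1 at an unadjusted p under 0.05), against 0% of all genes, nor in the joint test of all 6 times (0 at an unadjusted p under 0.05), also against 0%.

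Between the double deletion and the parental strain, averaged over the 7 times, 2 of the 9 genes were called, both higher in the deletion strain, which is near the 19.5% of all genes called. The difference from the parental strain was 0.48 ± 0.11 for FAA4 (adjusted p = 0.0048, 1.39-fold), and at 6 of the 7 times its mean was the higher one. FAS1 was higher by 0.27 ± 0.08 (adjusted p = 0.024, 1.21-fold), which became adjusted p = 0.054 without the 25 min array numbered 2 of the double deletion. Averaging all probe sets of FAS1 ended its call, at 0.21 (limma, adjusted p = 0.544). Under centring on hybridisation controls the differences were 0.36 for FAA4 and 0.15 for FAS1, and neither was called (adjusted p = 1 for both). FAS1 gave 9.92 and 9.93 before heat in the double deletion, within the parental 9.75 and 10.09, and at 25 min it gave 8.57 and 8.81 against 8.21 and 8.01. With the replicate block 4 members were called, against 33.9% of all genes: ACC1 (0.34 ± 0.07, adjusted p = 0.001) and FAA1 (-0.40 ± 0.14, adjusted p = 0.0277) as well as these 2. FAA1 was also called with median centring (-0.46, adjusted p = 0.0483), but not with the block across strains. The FAA1 arrays of the double deletion disagreed at some times, as given above. The SRB4 3′ minus 5′ difference averaged 1.51 in the double deletion and 1.22 in the parental strain over 14 arrays each, and its part in these differences was not tested.

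Before heat no member was called between the double deletion and the parental strain (1 at an unadjusted p under 0.05, against 0.106% of all genes), and none for a difference in mean heat response (0 at an unadjusted p under 0.05, against 0.0177%) or in the joint test (0, against 0.0177%). For the difference in mean heat response, the 95% interval of FAS1 ran from -0.19 to 0.80 and that of OLE1 from -0.98 to 0.50. With 2 arrays before heat, differences within these ranges were not excluded. Between the deletion strains over the 7 times no member passed (3 at an unadjusted p under 0.05), against 12.8% of all genes. With the replicate block 3 did, against 28.3%: FAA1 was higher in dpl1D by 0.43 ± 0.14, and ACC1 (-0.22 ± 0.07) and FAS1 (-0.23 ± 0.08) were lower there. No member was called for a difference in heat response between the deletion strains, by its mean (0%) or jointly (0.0354%), with 0 at an unadjusted p under 0.05 in both.

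The shapes of the 9 courses were compared over the 21 means of strain and time, which share arrays, times and strains, so the correlations are a description. Each pair of members was compared by Pearson's r. The courses of OLE1 and FAA4 were the closest pair (r = 0.957), followed by FAS1 and FAA4 (0.955), ACC1 and FAS1 (0.928) and FAS1 and OLE1 (0.925), and the subunits FAS1 and FAS2 gave 0.905. FAA1 ran against FAA3 (-0.894) and FAA4 (-0.797). ELO1 followed none of the others, with r between -0.02 and 0.26. Among all other genes, those closest to OLE1 were VTC2 (0.974), a subunit of the vacuolar complex that makes polyphosphate, YAR068W (0.970) and RSN1 (0.967). Those closest to FAS1 were the chromatin remodeller CHD1 (0.978), the RNA-binding protein SCP160 (0.978) and the GMP synthase GUA1 (0.977). For FAA4 they were the mitotic kinase CDC5 (0.979), the mitochondrial aldehyde dehydrogenase ALD5 (0.979) and GUA1 (0.977).

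Of 7 regulators of the pathway, 1 was called lower and 2 higher in the parental strain, 2 and 1 in dpl1D, and 0 and 2 in the double deletion, near the 46.3%, 47.2% and 44.3% of all genes called in either direction in these strains. MGA2 and SPT23 encode the membrane-bound activators of OLE1. Neither was called in the parental strain, with -0.13 ± 0.15 for MGA2 and 0.66 ± 0.29 (adjusted p = 0.068) for SPT23. MGA2 fell in dpl1D, by 0.54 ± 0.15 (adjusted p = 0.0047), where its arrays gave 4.75 and 4.59 before heat. UBX2, whose product helps to release those activators from the membrane, rose by 0.95 ± 0.24 in the parental strain, from 6.61 and 6.53 to a heated mean of 7.52, and by 0.62 ± 0.24 in the double deletion, and gave 0.48 ± 0.24 (adjusted p = 0.097) in dpl1D. INO4, a subunit of the activator of phospholipid and fatty acid synthesis genes, rose in all 3 strains by 0.59, 0.61 and 0.45 ± 0.17, whereas its partner INO2 gave 0.25, 0.07 and 0.01 ± 0.30 and was not called. Their repressor OPI1 fell in the parental strain by 0.54 ± 0.20 and in dpl1D by 0.57 ± 0.20, and gave 0.02 ± 0.20 in the double deletion. SNF1, the kinase that restrains Acc1, was called in no strain, at -0.24, 0.03 and 0.00 ± 0.17. Strain pairs were also tested over all 5656 genes for a difference in mean heat response, by limma. Between dpl1D and either other strain 0 genes were called, so no regulator was. Between the double deletion and the parental strain 1 gene was called. It is not named here, so no difference in OPI1 between these strains is to be read from this count.

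The lists of neighbouring pathways are to be read against the shares of all genes called in the same direction. These were 24.5% lower and 21.8% higher in the parental strain, 26.6% and 20.6% in dpl1D, and 25.2% and 19.1% in the double deletion. Of 5 genes of very long chain elongation, the 2 elongases ELO2 and ELO3 fell in every strain, in the parental strain by 1.79 ± 0.25 (from 9.11 and 8.98 to a heated mean of 7.26) and by 1.91 ± 0.23 (from 9.87 and 10.27 to 8.16), and the other 3 were not called. Of 8 genes of mitochondrial fatty acid synthesis none fell: ETR1, its enoyl reductase, rose by 1.54 ± 0.30 in the parental strain and rose in the other two, and MCT1 rose by 0.68 ± 0.23 in the parental strain. Of 6 genes that supply acetyl-CoA or biotin, 1 rose in the parental strain, the acetyl-CoA synthetase ACS1 (1.19 ± 0.33), while 2 rose in dpl1D and 1 rose and 2 fell in the double deletion. Of 10 genes of storage lipid synthesis and lipolysis, 4 rose and 1 fell in the parental strain, and 4 rose and 2 fell in each deletion strain. They included the sterol acyltransferase ARE2 (1.24 ± 0.32), the triacylglycerol lipase TGL4 (0.96 ± 0.22), the diacylglycerol acyltransferase DGA1 (0.70 ± 0.18) and the steryl ester hydrolase YEH1, which fell by 1.32 ± 0.25, in the parental strain. None of 3 further genes of fatty acid activation and import was called in any strain.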

How the data were processed

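Values were the log2 signals that the authors deposited in the series table, made with RMA (background correction, quantile normalisation between arrays and probe summary) per the submitters' processing notes. The log base was inferred from the range, 1.36 to 14.7, and no source used here gives the RMA version. Arrays carry no read depth, so their number limits the precision. Of 9275 probe sets other than the 60 controls, 6504 had 1 gene symbol, 328 several and 2443 none in the platform annotation. Symbols were updated against RefSeq (0 changed), leaving 5656 genes at 1 probe set each, tested with no filter. Strains, times and replicate numbers came from the labels.

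The model, in limma 3.58.1 (R 4.3.3), had a mean for each of the 21 groups, which left 21 residual degrees of freedom, and empirical Bayes moderation. Tests were two-sided, adjusted over all genes, and were tried on simulated data. The simulated arrays were independent, so the trial did not cover the difference between replicate numbers. Same-numbered arrays deviated together from their group means: the correlation was above 0.1 in 63 of 63 pairs of groups within a strain (lowest 0.192, median 0.478). Over all pairs of groups, those across strains included, it was above 0.1 in 209 of 210 (median 0.412). The numbers were taken to pair arrays within strains, though this check does not set such pairing apart from a difference shared by all strains. Alternatives were median centring, cyclic loess, centring on hybridisation controls, a threshold of 0.01, a filter that drops the 25% of genes with the lowest mean, array weights, moderation with trend and robust settings, averaging the probe sets of a gene, the replicate block within or across strains, and leaving out each array. The single probe sets of FAS1 and FAS2 and the steps between times were added after seeing the data.

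The members, gene lists and tests were chosen with earlier results of these data known. All 9 members are named. Other genes are named by rule: the 3 with the highest r for OLE1, FAS1 and FAA4, up to 4 called genes of smallest p per list, and 7 regulators. STE3 and STE2 check the mating type of the parental strain. No sequence or coordinate is printed.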

Additional observations from a re-analysis of the deposited data

How the results depend on the processing

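With the replicate block within strains, late minus early calls in the double deletion went from 2 to 4, calls between the double deletion and the parental strain over 7 times from 2 to 4, and those between the deletion strains from 0 to 3 (3 also with the block across strains). Apart from the gene calls given above with the block, it changed no call of a member in the mean heat response. Centring on the hybridisation controls, which moved the median of all genes by 0.274, 0.213 and 0.245 (log2) in the mean heat response of the parental strain, dpl1D and the double deletion, left 1, 1 and 2 members lower, 1, 1 and 0 higher, 0 late minus early calls in each strain, 0 between the double deletion and the parental strain, 19 of 91 calls at single times and 2 of 8 in the steps. Under it FAA4 kept its call in all 3 strains, at -1.71, -2.47 and -1.95, and the share of higher genes among all calls went from 47% to 61.4% in the parental strain, 43.7% to 57.8% in dpl1D and 43.1% to 57.2% in the double deletion. Late minus early calls in the parental strain, dpl1D and the double deletion were 2, 1 and 0 at an adjusted p under 0.01. In the double deletion they were 0 with cyclic loess and with array weights, 1 with trend and robust moderation and 1 with the mean of all probe sets, which also left 0 in dpl1D, 3 lower members in the mean heat response of the double deletion and 1 call between the double deletion and the parental strain. That last count was also 1 at an adjusted p under 0.01. Median centring took FAS1 between these strains to an adjusted p of 0.0691 and ACC1 in dpl1D to 0.0525. FAS2 probe set 2601_at reversed the sign, at 0.057, 0.30 and 0.45. Leaving out single arrays gave 2 to 4 late minus early calls in the parental strain, 0 to 2 in dpl1D and 0 to 2 in the double deletion, 1 to 4 calls between the double deletion and the parental strain, and 0 to 1 between the deletion strains. The cause of these changes was not tested. Leaving out the dimmest 25% of genes removed FAA3. Differences between strains in heat response rest on 2 arrays before heat per strain.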
